A study of Mus musculus with 2 samples.

Results

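The enzymes of glycolysis and of the pentose phosphate pathway were examined in mouse bone marrow cells transduced with Satb1 or with GFP. The list held 37 genes, from the hexokinases to lactate dehydrogenase, with the pyruvate dehydrogenase E1 subunits and their kinases, the bifunctional PFKFB enzymes and the pentose phosphate enzymes. The members were chosen by name, from a list drawn up with the log2 differences of these arrays in view, so these differences are given as a description. A gene was taken from the probe sets whose platform annotation names that gene alone. Such probe sets were found for 32 of the 37 genes, 66 probe sets in all, among 45037 probe sets and 18193 genes on the array. Gpi1, Gapdh, Eno1, G6pdx and Pfkfb1 had no probe set that met this rule and were not analysed here. For Gapdh, 3 probe sets name it together with other genes and were left out for that reason.

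RNA came from C57BL6J mice of wild-type genotype and from LSK Flt3- cells, that is, marrow cells without lineage markers and Flt3 but with Sca-1 and high c-Kit. Both groups had this strain, genotype and cell type and both were transduced, 1 group with GFP as the control and the other with Satb1, a nuclear protein that organises chromatin at AT-rich DNA. The sources used here do not give the time after transduction, the vector, or the animals' number and age. Each group was 1 array, so each difference rests on n = 1 per group, and no error, test or p-value can be given.

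Glycolysis turns glucose into pyruvate and yields ATP, and lactate dehydrogenase then turns pyruvate into lactate. Pyruvate dehydrogenase instead passes pyruvate to the mitochondria, and its kinases switch it off. The pentose phosphate pathway leaves glycolysis at glucose 6-phosphate, makes NADPH in its oxidative arm and moves carbon between ribose phosphates and glycolytic sugars in its non-oxidative arm. Blood stem cells in the marrow are known for a high reliance on glycolysis, sustained in part by the hypoxia factor HIF1A and by pyruvate dehydrogenase kinases.

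Intensities are MAS5 values, the Affymetrix summary of a probe set on a linear scale in arbitrary units. Values under 61.7, the median of all values on both arrays, were treated as lying at that floor before a log2 difference was taken. All differences are the array labelled Satb1 minus the array labelled GFP. Each gene is represented by its brightest probe set, the one of highest mean log2 intensity over the arrays. Levels of different genes are given side by side and are not ranked, because probe sets bind their targets with unequal strength. Arrays give no read depth, and precision is limited by the number of arrays. The only technical error available is the spread between probe sets of 1 gene, whose within-gene SD of the log2 difference was 0.13 at mean intensities over 2000 and 0.19 from 500 to 2000. This SD leaves out errors common to a gene's probe sets, such as those of an RNA preparation.

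The transduced gene did not mark the arrays. The brightest Satb1 probe set read 1116 on the GFP-labelled array and 909 on the Satb1-labelled array, and none of the 5 Satb1 probe sets was higher on the latter. The sources used here do not say whether these probe sets lie in the transduced sequence, so all directions rest on the labels. All 8 measured progenitor markers were above the floor, among them Kit at 3293 on the GFP-labelled array and 3388 on the Satb1-labelled array. Of these 8, 3 were higher by any amount and 5 lower, and only Slamf1, the CD150 gene, was 2-fold apart, at 95.7 and 232.6 (log2 difference 1.28). Flt3 RNA was also present at 1390 and 1334, although the label describes the cells as lacking Flt3. Ly6a, the Sca-1 gene, was not analysed here. Of other cell types' markers, 2 of 5 measured B cell, 1 of 5 T cell, 3 of 8 erythroid and 6 of 6 megakaryocyte genes were above the floor. At 2-fold, 0 of these were apart. At 1.5-fold, 1 T cell, 1 erythroid and 2 megakaryocyte genes were higher on the array labelled Satb1 and 0 lower. Of all genes above the floor on at least 1 array, 0.272% were 2-fold higher and 0.86% lower. At 1.5-fold, 1.75% of them were higher and 3.91% lower. All 3 erythroid and all 6 megakaryocyte genes were higher by any amount, beside 45.2% of all genes.

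Most enzymes of the pathway read nearly the same on both arrays, and the hexokinase Hk3 stood apart. Of the 32 measured members, 28 were above the floor on both arrays and 4 were below it on both. Among the 28, 0 were at least 2-fold higher on the array labelled Satb1, where 0.272% of all 11048 genes above the floor on at least 1 array were. Only Hk3 was at least 2-fold lower, where 0.86% of all genes were. At 1.5-fold, 0 members were higher and Hk3 alone was lower, against 1.75% and 3.91% of all genes. The log2 difference was smaller than 0.2 in either direction for 25 of the 28 members (89.3%) and for 63.5% of all genes. Among genes with a mean intensity over 2000 it was that small for 81.9%, and for 16 of the 18 members that bright (88.9%). Of all 28 members, those with a larger difference were Hk3, Hk1 and Eno3. The median log2 difference of the 28 members was 0.05, with the middle 50% between -0.05 and 0.11. Over all genes it was -0.02, with the middle 50% between -0.18 and 0.12.

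**Figure D1:**
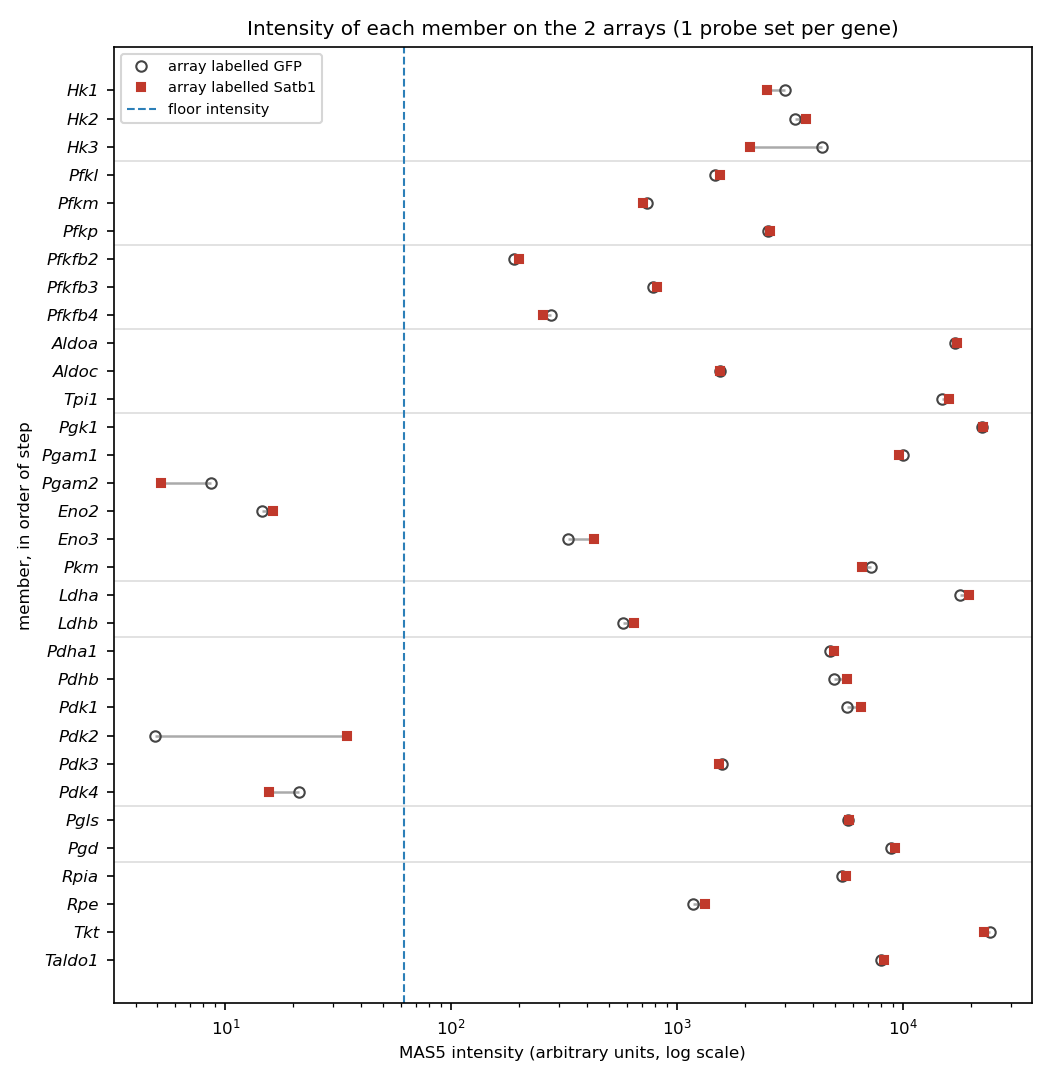
MAS5 intensity (x axis, log scale) of the 32 measured members (y axis, in order of step), with open circles for the array labelled GFP, red squares for the array labelled Satb1 and a dashed line at the floor of 61.7. The pairs of symbols nearly coincide except for Hk3, at 4399 and 2098, and for genes left of the floor, whose values have no order.

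The count of small positive differences depended on the scaling and on the probe set rule. Of the 28 members, 20 were higher by any amount on the array labelled Satb1 and 8 lower, where 45.2% of all genes were higher by any amount. Among genes with a mean intensity over 2000, 58.8% were higher by any amount, and 13 of the 18 members that bright were (72.2%). After quantile normalization of the arrays, 16 of 28 members were higher and 12 lower, and the median was 0.01, beside 0.00 (0.00132) over all genes. With each array centred on its median, 21 were higher and 7 lower (median 0.10, beside 0.03 over all genes). With the mean over a gene's probe sets, 15 of 27 were higher and 12 lower (median 0.03, beside -0.03). The scaling also moved the split among all genes at 2-fold, of which 76.0% were lower as deposited and 52.6% after quantile normalization.

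The hexokinases, which phosphorylate glucose and hold it in the cell, differed by unlike amounts. Hk3 and Hk1 were lower on the array labelled Satb1, and Hk2 was slightly higher. Hk3, a hexokinase known from myeloid cells, read 4399 on the GFP-labelled array and 2098 on the Satb1-labelled array, a 2.10-fold lower value and a log2 difference of -1.07. Its second probe set (1435490_at) read 1782 and 1021, a 1.74-fold lower value and a log2 difference of -0.80. Both Hk3 probe sets were therefore lower on the array labelled Satb1, and the gap of each from 0 is several times the 0.13 and 0.19 seen between probe sets of 1 gene at such intensities, which is not the error of a difference between arrays. The brighter probe set (1442798_x_at) carries the suffix of probe sets that may cross-match other genes. Without such probe sets the difference was -0.80, and as the mean over both probe sets it was -0.94, so that under either choice 0 members were 2-fold lower.

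Hk2, the inducible hexokinase, read 3312 on the GFP-labelled array and 3707 on the Satb1-labelled array by its single probe set, a log2 difference of 0.16. Hk1, the widely expressed hexokinase, read 3003 and 2505, a log2 difference of -0.26. Its second probe set (1420901_a_at) read 249 and 208, a difference again of -0.26. The Hk3 difference lay 1.23 log2 units below that of Hk2 and 0.81 below that of Hk1. Among the 11048 genes above the floor, Hk3 had the 76th lowest log2 difference. Among the 2570 genes with a mean intensity over 2000 it had the third lowest. In that bright class 4 genes were 2-fold lower (0.156%), namely Scin, Mcpt8, Hk3 and Malat1, and 2 were 2-fold higher (0.0778%), namely S100a9 and S100a8. These genes are named here after their values were seen.

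**Figure D2:**
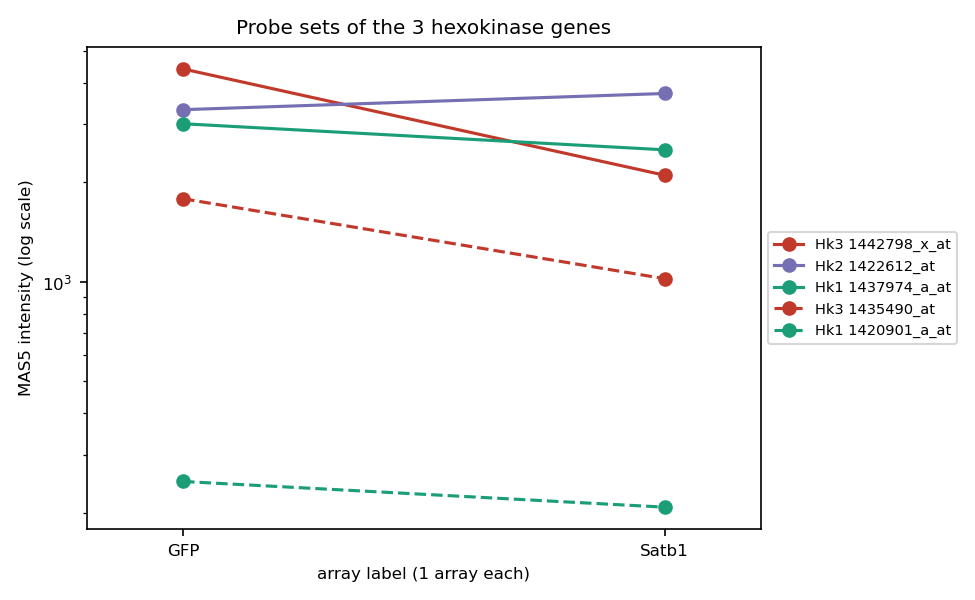
MAS5 intensity (y axis, log scale) of the 5 probe sets of Hk1, Hk2 and Hk3 on the arrays labelled GFP and Satb1 (x axis, 1 array each), each line being 1 probe set. Both Hk3 lines slope down, from 4399 to 2098 and from 1782 to 1021, the Hk1 lines slope down slightly and the Hk2 line slopes up slightly.

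Genes of myeloid lineages also differed between the arrays, in both directions. At 2-fold, 0.272% of all genes above the floor on at least 1 array were higher on the array labelled Satb1 and 0.86% lower. Of 10 granulocyte and monocyte markers, all above the floor, 5 were at least 2-fold higher and 0 at least 2-fold lower. By any amount, 7 were higher and 3 lower. Their summed intensity was 29697 on the GFP-labelled array and 40163 on the Satb1-labelled array. Most of that rise came from S100a8 (3094 and 10109) and S100a9 (1578 and 4539), while Mpo, the brightest, read 18391 and 16452. Of 8 mast cell and basophil markers, 7 were above the floor, 3 of them at least 2-fold lower and 1 higher, and their summed intensity was 14487 and 8980. No marker of either list was listed at 0, which carries no information because the lowest value on each array was 0.1. Their part in the Hk3 result was not tested. Fewer cells of a type and less RNA per cell cannot be told apart in such bulk samples.

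The promoters of the hexokinases are shown because these isoenzymes catalyse the same step and had differences of unlike size. Hk3 and Hk1 were both lower, and Hk2 was higher by 0.16, close to the SD of 0.13 between probe sets of 1 gene. Each is the 250 bases before an annotated start, 5′ to 3′ on the gene's strand, from RefSeq on build GRCm38.p6. Capitals mark matches, on either strand, to ACGTG or GCGTG, the forms of the HIF response core, and to GGAAGT, a core of ETS family sites. Matches that overlap run together.
Hk1, start with the higher coordinate, chr10:62379909-62380158, minus strand: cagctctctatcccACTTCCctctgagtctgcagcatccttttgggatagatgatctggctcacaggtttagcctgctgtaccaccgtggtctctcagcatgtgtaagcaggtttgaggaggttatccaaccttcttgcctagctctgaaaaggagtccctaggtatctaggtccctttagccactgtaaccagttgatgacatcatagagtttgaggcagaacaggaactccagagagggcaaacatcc
Hk1, start with the lower coordinate, chr10:62340422-62340671, minus strand: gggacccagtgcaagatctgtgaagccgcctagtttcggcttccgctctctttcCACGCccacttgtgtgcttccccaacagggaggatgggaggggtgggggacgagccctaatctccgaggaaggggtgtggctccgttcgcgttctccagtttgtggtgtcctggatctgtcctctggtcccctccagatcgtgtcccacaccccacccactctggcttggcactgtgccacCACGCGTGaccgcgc
Hk2, chr6:82774455-82774704, minus strand: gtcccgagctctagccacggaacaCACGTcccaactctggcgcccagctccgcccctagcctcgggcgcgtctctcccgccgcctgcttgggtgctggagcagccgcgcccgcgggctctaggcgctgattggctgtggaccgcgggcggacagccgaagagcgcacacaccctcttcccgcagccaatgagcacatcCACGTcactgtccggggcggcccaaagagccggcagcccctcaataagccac
Hk3, chr13:55021386-55021635, minus strand: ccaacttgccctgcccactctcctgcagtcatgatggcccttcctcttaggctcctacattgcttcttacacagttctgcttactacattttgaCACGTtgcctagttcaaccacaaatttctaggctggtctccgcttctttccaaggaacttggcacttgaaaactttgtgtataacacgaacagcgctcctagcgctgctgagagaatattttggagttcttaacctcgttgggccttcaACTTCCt

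The Hk2 promoter held 2 ACGTG matches, 226 and 52 bases before the start. The Hk3 promoter held 1 ACGTG match, 156 bases before the start, and 1 GGAAGT match whose first base lay 7 bases before it. The upstream Hk1 start had 1 GGAAGT match and the other Hk1 start 3 GCGTG matches. Of 32851 RefSeq promoters of the same length, 16.6% held ACGTG, 28.2% GCGTG, 38.6% either of these and 19.7% GGAAGT. All 37 listed genes had promoters in the table, 57 in all, and 42 of these (73.7%) held ACGTG or GCGTG while 10 (17.5%) held GGAAGT. Several genes have more than 1 annotated start, and some of their windows overlap, so these are not independent sequences. A palindromic CACGTG counts as a match on both strands. The A and T content was 52.8% for Hk3, 30.4% for Hk2, and 50.4% and 37.2% for the Hk1 starts in the order shown. Over all promoters its median was 47.6%, with the middle 50% between 38.8% and 54.8%, and over the members' promoters the median was 41.2%. The shares of promoters with a match were not adjusted for this content, and its part in the members' 73.7% was not tested. A match of letters is a description and does not show that a factor was bound.

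The phosphofructokinases, which commit the sugar to glycolysis, differed little. Pfkp, the platelet form, read 2517 on the GFP-labelled array and 2584 on the Satb1-labelled array (log2 difference 0.04). Pfkl, the liver form, read 1476 and 1546 (0.07), and Pfkm, the muscle form, read 739 and 705 (-0.07). All 3 isoenzymes were above the floor on both arrays. Dim probe sets of these genes went other ways. For Pfkl, 1453541_at read 223 and 148 (-0.59). For Pfkp, 1430634_a_at read 139 and 227 (0.71) and 1437759_at read 90.1 and 27.7, the latter below the floor. With the probe sets of several transcripts left out, the dim Pfkl probe set stands for the gene, and 2 members rather than 1 were then 1.5-fold lower. As the mean over its probe sets the Pfkp difference was -0.32, which uses the reading of 27.7 as deposited. With each probe set brought to the floor first, an alternative chosen after seeing the data, the mean was 0.07.

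The PFKFB enzymes make and break fructose 2,6-bisphosphate, the activator of phosphofructokinase. Pfkfb3, the form with the strongest kinase activity, read 784 on the GFP-labelled array and 817 on the Satb1-labelled array (log2 difference 0.06). Its second probe set, close to the floor, read 74.7 and 70 (-0.09). Pfkfb2 read 190 and 199 (0.07), with its other 3 probe sets below the floor on both arrays, and Pfkfb4 read 278 and 255 (-0.12). Each of the 3 measured genes was thus above the floor by its brightest probe set, with differences of both signs.

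The aldolase and triose phosphate steps split the sugar into triose phosphates and interconvert them. Aldoa, the main aldolase outside liver, read 17043 on the GFP-labelled array and 17302 on the Satb1-labelled array (log2 difference 0.02). Aldoc, the brain-type aldolase, read 1549 and 1551 (0.00 to 2 decimals), and its dimmer probe set (1424714_at) read 203 and 240 (0.24). The triose phosphate isomerase gene Tpi1 read 14953 and 15964 (0.09). The 5 Aldoa probe sets ranged from -0.11 to 0.21. By brightest probe sets, the differences of these 3 genes lay inside that range.

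In lower glycolysis Pgk1, Pgam1, Pkm and Eno3 were above the floor, and the muscle phosphoglycerate mutase and the neuronal enolase were not. The phosphoglycerate kinase gene Pgk1, an enzyme that yields ATP, read 22312 on the GFP-labelled array and 22668 on the Satb1-labelled array (log2 difference 0.02). Its other probe sets, 1417864_at and 1439435_x_at, gave 0.17 and 0.20. The mutase gene Pgam1 read 10012 and 9570 (-0.07), and the pyruvate kinase gene Pkm read 7234 and 6603 (-0.13). The Pkm value does not separate the M1 and M2 splice forms, since the sources used here do not place its single probe set. Pgam2, the muscle mutase, read 8.6 and 5.2, and Eno2, the neuronal enolase, read 14.6 and 16.2, both under the floor. Eno3, the muscle-type enolase, read 329 and 427 by a single probe set, a log2 difference of 0.38. This was the largest positive difference of any member under the settings as reported and is under 1.5-fold.

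Both lactate dehydrogenase genes were slightly higher on the array labelled Satb1. Ldha, whose subunit favours lactate formation, read 17917 on the GFP-labelled array and 19708 on the Satb1-labelled array (log2 difference 0.14). Ldhb, the heart-type subunit, read 578 and 642 (0.15). The 4 Ldhb probe sets ranged from 0.06 to 0.15. The differences of the Ldha and Ldhb genes were thus 0.01 apart (-0.01 as Ldha minus Ldhb).

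At the entry to the mitochondria, the E1 subunits of pyruvate dehydrogenase and the kinases Pdk1 and Pdk3 were above the floor. The E1 alpha gene Pdha1 read 4735 on the GFP-labelled array and 4968 on the Satb1-labelled array (log2 difference 0.07). The E1 beta gene Pdhb read 4968 and 5667 (0.19), and its dim probe set (1448214_at) read 109 and 107 (-0.03). Pdk1, the kinase known as a HIF1A target, read 5666 and 6489 (0.20), and Pdk3 read 1578 and 1531 (-0.04). Pdk2 (4.9 and 34.6) and Pdk4 (21.1 and 15.6), the kinases known for their response to fasting, were below the floor on both arrays, so no difference was taken. The 4 Pdk1 probe sets disagreed in sign, from -0.75 for a dim one (1434974_at, at 292 and 173) to 0.20 for the brightest. As their mean the Pdk1 difference was -0.14, so its direction depends on the probe set.

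All 6 measured pentose phosphate genes were above the floor, with differences between -0.10 and 0.17 and a median of 0.05. In the oxidative arm, the lactonase gene Pgls read 5687 on the GFP-labelled array and 5792 on the Satb1-labelled array (log2 difference 0.03). Pgd, the 6-phosphogluconate dehydrogenase that makes NADPH, read 8839 and 9231 (0.06), and its 4 probe sets ranged from 0.03 to 0.39. In the non-oxidative arm, the ribose phosphate isomerase gene Rpia read 5394 and 5577 (0.05) and the epimerase gene Rpe 1176 and 1326 (0.17). The transketolase gene Tkt read 24356 and 22776 (-0.10) and the transaldolase gene Taldo1 7971 and 8234 (0.05). Of the other Tkt probe sets, 1451015_at gave -0.02 and the dim 1436605_at, at 211 and 234, gave 0.15, so that Tkt had both signs. The second bright Rpe probe set (1416705_at) read 1130 and 1055, with a log2 difference of -0.10, so that Rpe had both signs.

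**Figure D3:**
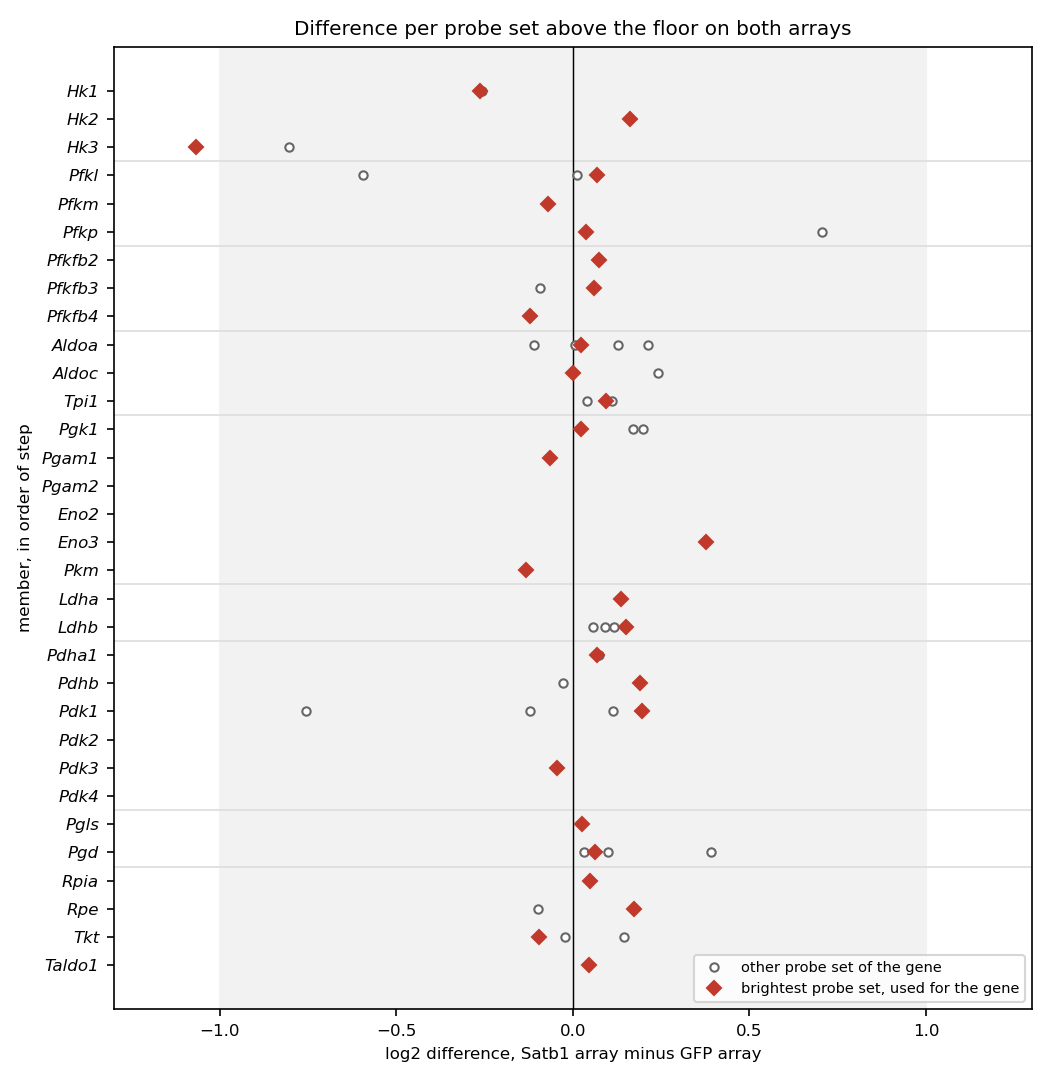
Log2 difference (x axis, array labelled Satb1 minus array labelled GFP) of each member probe set that exceeded the floor on both arrays, with genes on the y axis in order of step; red diamonds mark the probe set used for the gene, open circles the others, and grey the range within 2-fold. Only the brighter Hk3 probe set lies outside the grey range, and Pfkl, Pfkp and Pdk1 have dim probe sets far from their diamonds.

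Of the 57 member probe sets that exceeded the floor on both arrays, 1 was 2-fold apart and 5 were 1.5-fold apart. The 5 were both Hk3 probe sets and the dim probe sets of Pfkl, Pfkp and Pdk1 given above. Among the 16 members with at least 2 such probe sets, all probe sets of a gene had the same sign in 9. Hk1, Hk3, Ldhb, Pdha1, Tpi1, Pgk1, Pgd, Aldoc and Pfkp were these 9 genes. The count leaves out probe sets below the floor on an array, such as the dim Pfkp probe set that read 90.1 and 27.7. The same shares were not taken over all probe sets or all genes, so these counts describe the members and set them apart from no other genes.

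Genes that feed, drain or regulate the pathway were compared by 6 further lists. By brightest probe sets, none of these lists had a member 2-fold apart, where 0.272% of all genes were higher and 0.86% lower. At 1.5-fold, 1.75% of all genes were higher and 3.91% lower. In lists this small, a count of 0 or 1 does not set a list apart from all genes. The lists' medians stand beside that of all genes above the floor, -0.02. The lists' counts of genes higher by any amount stand beside 45.2% of all genes, or 58.8% of those with a mean intensity over 2000. In the list of other isoenzymes and opposing enzymes, 14 of 17 genes were measured and 6 were above the floor, with a median log2 difference of -0.13. Fbp1, the gluconeogenic fructose bisphosphatase that opposes phosphofructokinase, read 528 on the GFP-labelled array and 807 on the Satb1-labelled array by its single probe set. Its log2 difference of 0.61 (1.53-fold) was the only one past 1.5-fold in the 6 lists. The other 8 measured genes, Hkdc1, Gapdhs, Pgk2, Pklr, Ldhc, Tktl1, Fbp2 and Eno4, most of them forms known from single tissues, were below the floor on both arrays.

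**Figure D4:**
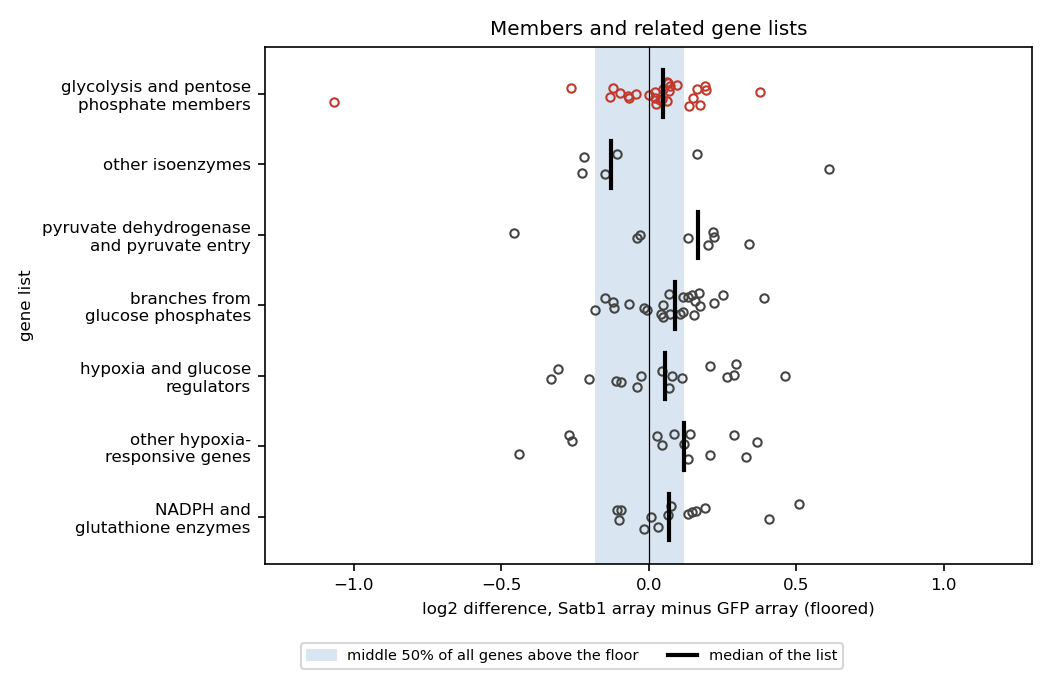
Log2 difference (x axis, array labelled Satb1 minus array labelled GFP, after the floor) of every gene above the floor in the member list (red) and in 6 related lists (grey), 1 row per list, with a black bar at each median and blue for the middle 50% of all genes. Hk3 at -1.07 and Fbp1 at 0.61 lie farthest from 0.

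In the list of the rest of the pyruvate dehydrogenase complex and pyruvate entry, 8 of 9 measured genes were above the floor, 5 higher by any amount and 3 lower, with a median of 0.17. Its largest differences were those of Pdpr, the regulator of the activating phosphatase, and Pdp2, a catalytic subunit of that phosphatase. Pdpr read 1041 on the GFP-labelled array and 759 on the Satb1-labelled array (-0.46), and Pdp2 read 361 and 457 (0.34). The other Pdpr probe sets that exceeded the floor on both arrays gave -0.22 and -0.06. In the list of branches from glucose phosphates, which covers glycogen, hexosamine, glycerol phosphate, serine and ribose phosphate enzymes, 24 of 27 were above the floor, 17 higher and 7 lower, with a median of 0.09. Its largest differences were those of the glycogen genes Gbe1, the branching enzyme (256 and 336, log2 difference 0.39), and Pygl, a phosphorylase (2946 and 3507, 0.25). Gpd1 of this list, at 67 and 49.1, exceeded the floor on the GFP-labelled array only, so its difference of -0.12 could only be negative.

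Of the hypoxia and glucose regulators of these enzymes, 16 of 18 measured genes were above the floor, 9 higher by any amount and 7 lower, with a median of 0.06. Egln3, a prolyl hydroxylase that marks HIF1A for destruction and is itself a HIF target, read 1933 on the GFP-labelled array and 2664 on the Satb1-labelled array (log2 difference 0.46). Its second probe set gave 0.11. Egln2, another such hydroxylase, read 1195 and 951 (-0.33). In the list of hypoxia-responsive genes outside glycolysis, 13 of 15 measured genes were above the floor, 10 higher by any amount and 3 lower, with a median of 0.12. The largest differences were those of Ankrd37 (846 and 624, log2 difference -0.44) and the glucose transporter gene Slc2a1 (2641 and 3409, 0.37). The other Slc2a1 probe sets gave 0.40 and 0.15. By its brightest probe set, no gene of either hypoxia list reached 1.5-fold, where 1.75% of all genes were higher and 3.91% lower.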

How the data were processed

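Total RNA of the transduced marrow cells was made into biotin-labelled cRNA and hybridised to 1 array per group, per the labels' protocols. The deposited values are MAS5 intensities, per the submitters' processing notes, which state neither the version nor the scaling target in the sources used here. The trimmed mean, with 2% of probe sets removed at each end, was 497 on each array.

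The annotation gave 34945 of 45037 probe sets a single symbol, 932 several and 9160 none. Symbols were updated by Entrez ID against GRCm38.p6 (34741 matched). No normalization was added. A floor of 61.7 was set before log2, each of 18193 genes was taken by its brightest probe set, and thresholds of 2-fold and 1.5-fold were applied in Python 3.11.15 with numpy 2.4.6 and pandas 2.3.3. The scripts were tested on simulated data.

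With 1 array per group no test was run. Every member is named; in each further list the genes 1.5-fold apart are named, or otherwise those with the 2 largest differences. Members and lists were chosen with earlier results of these data known. Alternatives covered the floor, the normalization and the probe set rule, 1 of them chosen after seeing the data.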

Additional observations from a re-analysis of the deposited data

How the results depend on the processing

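Setting the floor at the 25th percentile made 1 member, Pdk2, at least 2-fold (and so 1.5-fold) higher, at intensities of 4.9 and 34.6, and so did leaving out the floor (1 member at either threshold). Without a floor 2 members were 1.5-fold lower, Hk3 and Pgam2, the latter at 8.6 and 5.2. With the mean over probe sets, also where each was brought to the floor first (an alternative chosen after seeing the data), and without probe sets of several transcripts, 0 members were 2-fold lower, and without probe sets of several transcripts 2, Hk3 and Pfkl, were 1.5-fold lower. Hk3 ranged from -1.09 to -0.80 over the 8 alternatives. The members' median ranged from 0.01 to 0.10 and kept its sign. The list of other isoenzymes had a median of 0.23 over 2 genes with the floor at the 75th percentile, since fewer genes were left, against -0.13. The differences of Pfkl (-0.59 without probe sets of several transcripts), Pfkp (-0.32) and Pdk1 (-0.14, both as means over probe sets) moved by more than the 0.27 SD between probe sets of 1 gene. The Pfkp mean rests on a reading of 27.7, under the floor, and was 0.07 with each probe set brought to the floor first. Of 159 medians and counts recomputed, 149 stayed within that SD or within 1.5 times the count. That SD is wider than the medians as reported, so a median could change sign and still count as staying. The isomerase and phosphofructokinase median did so, from 0.04 to -0.17 as the mean over probe sets. A change of floor also leaves many of these values as they were, so the count does not measure stability. No paired analysis was possible because each group is 1 array, and for the same reason no array could be left out. Whether another preparation would give these values cannot be told from 2 arrays, and dim probe sets near the floor limit what can be said of the genes they represent.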

Other observations

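Enzymes that use or regenerate NADPH next to the pentose phosphate pathway were also measured. All 14 genes of this list were above the floor, 10 higher by any amount on the array labelled Satb1 and 4 lower, with a median log2 difference of 0.07, beside -0.02 for all genes above the floor, of which 45.2% were higher by any amount (58.8% of those with a mean intensity over 2000). None reached 1.5-fold. Gclm, the modifier subunit of the enzyme that limits glutathione synthesis, read 3254 on the GFP-labelled array and 4634 on the Satb1-labelled array (log2 difference 0.51), and its second probe set gave 0.28. Nqo1, a quinone reductase that consumes NADPH, read 299.7 and 398 by a single probe set (0.41). Without probe sets of several transcripts the list's median was -0.07, and with the mean over probe sets it was -0.0035 (0.02 with each probe set brought to the floor first), so its sign depends on the probe sets used.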
